A study of Homo sapiens with 4 samples.

Results

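The genes described here write, remove and read acetyl groups on histones, or form the corepressor complexes that carry histone deacetylases. A list of 49 was taken by gene symbol, under a rule that uses no measured value, though with earlier results of these data known. It held 9 acetyltransferases, 11 zinc-dependent deacetylases, 6 sirtuins, 6 bromodomain proteins and 5 ING proteins. It also held 4 corepressor scaffolds and 8 subunits of the nucleosome remodelling and deacetylase complex (NuRD). Of these, 48 were measured by at least 1 probe set paired with that gene alone, among 18132 such genes in the whole table. NCOR1 was not analysed here. The 48 genes had 158 probe sets, and each gene was represented by its brightest, the one with the highest mean over all arrays. The study compared OE33 cells, an established human line from an oesophageal adenocarcinoma, after transfection with a pool of siRNAs against ARID1A (knockdown) or with a pool of siRNAs without a target (mock). Both groups were treated alike apart from the pool: 50 nM siRNA with Lipofectamine and harvest 48 hours later. Each group had 2 replicates, described by the series as biological, so there were 4 Affymetrix PrimeView arrays of total RNA in all. The comparison is of 1 cell line under transient knockdown, and no untransfected cells were compared.

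Acetylation of histone tails loosens their hold on DNA and makes docking sites for bromodomains, and it marks active promoters and enhancers. Acetyltransferases work inside multi-subunit complexes, in which BRPF, ING and related proteins steer them to chromatin, and deacetylases work largely inside the SIN3, CoREST, NCOR and NuRD corepressors. ARID1A is a subunit of the BAF (SWI/SNF) nucleosome remodeller, which shares enhancers with the acetyltransferases CREBBP and EP300. In bulk RNA, a gene lowered in every cell and one lost from some of the cells cannot be told apart.

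ARID1A itself was at 7.53 in both knockdown arrays and at 9.28 and 9.33 in the mock arrays, on the log2 scale used for every level here. Its log2 change was -1.78 (SE 0.072, limma adjusted p = 0.0218), and all 4 arrays matched their labels. Array medians lay between 5.89 and 5.93. The 6 epithelial markers examined, among them KRT8, KRT19 and EPCAM, were all bright, with levels of 11.99 to 14.58 at or above the 98.4th percentile of probe sets. The fibroblast, leukocyte and endothelial markers reached no higher than 6.61, and none of the 21 markers measured passed the test. The summed fibroblast levels were 25.1 to 26.0 in knockdown and 26.0 to 26.6 in mock arrays, the leukocyte ones 23.1 to 23.2 and 23.5, and the endothelial ones 21.9 to 22.0 and 22.6 to 22.9. The leukocyte and endothelial sums were thus lower in knockdown arrays, and the fibroblast sums overlapped. The leukocyte markers did not move together. PTPRC and LYZ had log2 changes of 0.17 and 0.074, and CD3E, CD14 and CD68 had changes of -0.20 to -0.19. The dimmest 25% of probe sets held 3 of the 6 fibroblast markers, 2 of the 5 leukocyte markers and 0 of the 4 endothelial markers. The 3′ probe set of beta-actin exceeded its 5′ probe set by 1.21 and 1.10 after knockdown, against 1.04 and 0.995 in mock arrays, so this sign of RNA quality moved with the groups. The same difference for GAPDH was 0.201 and 0.215 after knockdown and 0.199 and 0.211 in mock arrays, which overlap. The part of the marker sums or of the actin difference in the results below was not tested.

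KAT6A, an acetyltransferase of histone H3 also known as MOZ, fell, and it was the only one of the 48 genes to pass the test at an adjusted p under 0.05. That is 2.08% of the genes, where 0.403% of all genes passed and 0.215% passed as lower. At an unadjusted limma p under 0.05, lower values were found for 6 of the 48 genes (12.5%), beside 7.25% of all genes, and higher values for 4 (8.33%), beside 9.76%. Apart from KAT6A, the list lay near the background of the whole array. Its median log2 change was -0.010, beside -0.0043 over all genes, and its median size of change regardless of sign was 0.10, beside 0.099. Both knockdown arrays lay above both mock arrays for 16 genes (33.3%, against 25.8% of all genes) and below both for 8 (16.7%, against 23.6%). At the brightest probe set, 46 of the 48 genes had a 95% interval inside a 1.5-fold change in either direction (log2 0.585). The 2 exceptions were KAT6A and its paralogue KAT6B. The share of all genes inside this limit is not given here. The median width of the 48 intervals was 0.41, which is the precision that 2 arrays a group gave. Dimmer probe sets of some other genes had intervals past the limit, among them 1 of HDAC8 at 0.45 to 0.89.

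**Figure D1:**
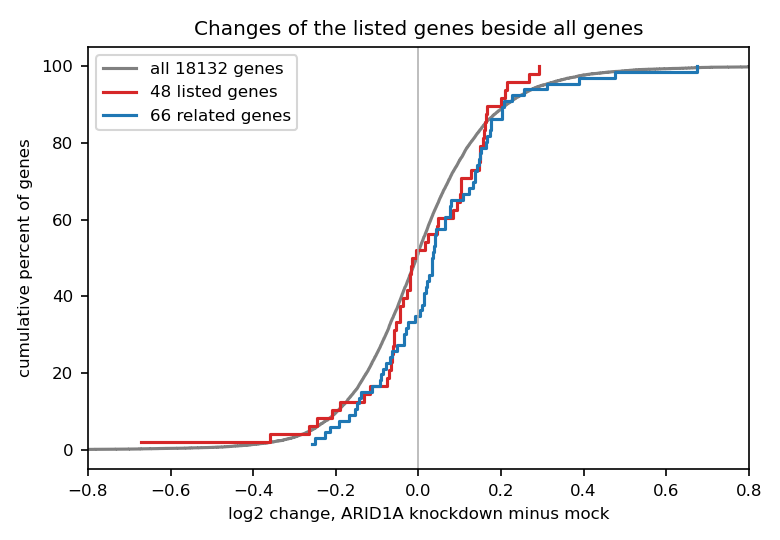
Cumulative percent of genes (vertical axis) up to each log2 change of knockdown minus mock (horizontal axis), for all 18132 genes (grey), the 48 listed genes (red) and 66 related genes (blue). The red curve runs close to the grey, with KAT6A at -0.67 far to its left, while the blue one lies to the right of the grey near 0.

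The test depends on how the spread of each gene is shared with others. When the spread was modelled with a trend on intensity, 6 of the 48 genes (12.5%) passed, and 8.63% of all genes did. The 6 were KAT6A, MBD3, BRD2 and MBD2, all lower, and BRD3 and ING2, both higher.

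**Figure D2:**
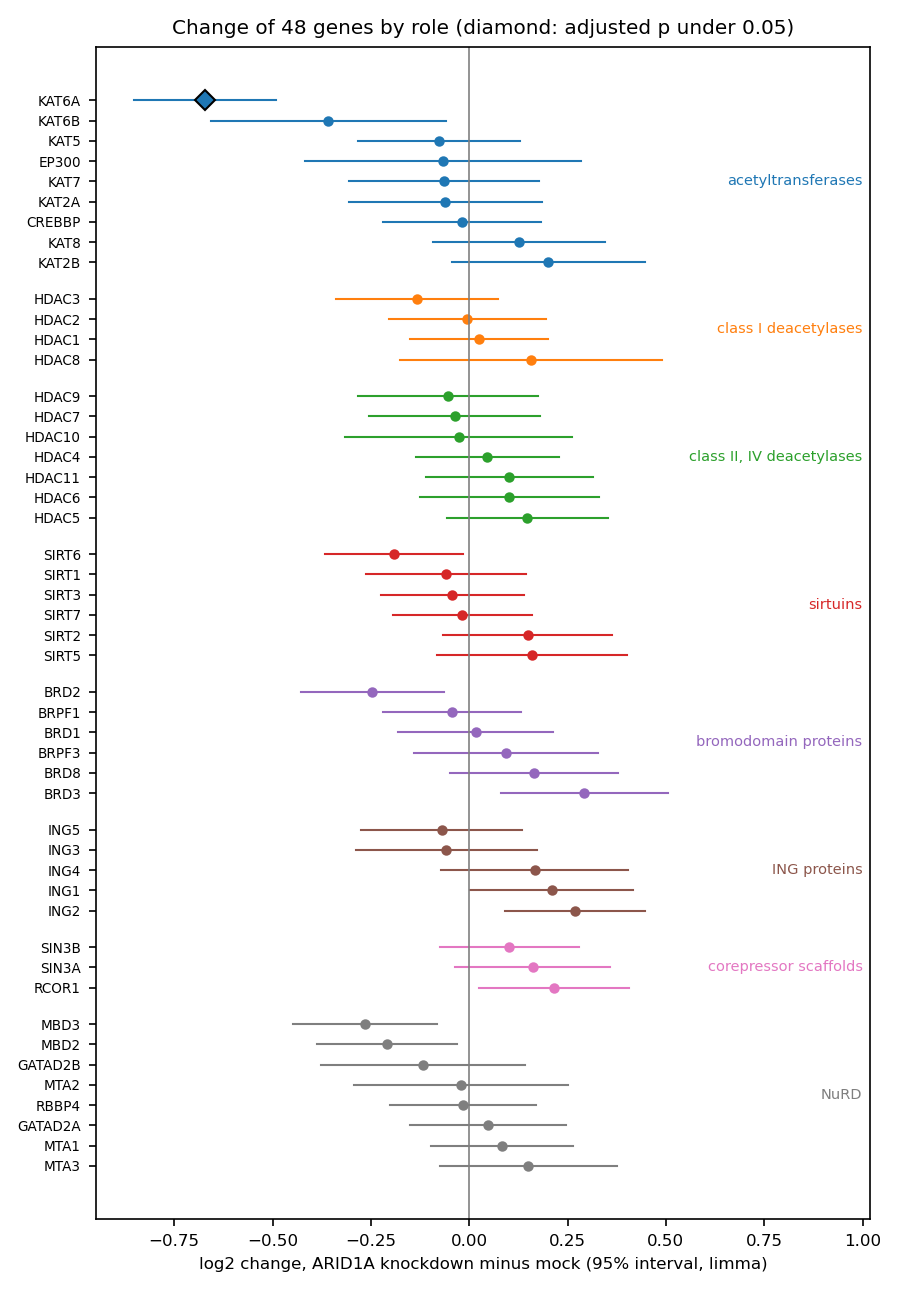
Log2 change of knockdown minus mock (points) with the 95% interval of the limma fit (lines) for the 48 genes, ordered within 8 groups by role. KAT6A, the diamond at -0.67, is the 1 gene past the adjusted threshold, and 38 of the intervals include 0.

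Among the 9 acetyltransferases, 7 had a negative change and 2 (22.2%) a positive one, beside 48.6% positive over all genes. Their median was -0.065, and 5 of the 9 changes were under 0.1 in size. KAT6A was at 8.37 and 8.40 in the knockdown arrays and at 9.09 and 9.03 in the mock arrays. The knockdown arrays lay well below the mock arrays, and arrays of the same group nearly coincided. The log2 change was -0.67 (SE 0.072, 95% interval -0.85 to -0.49, limma adjusted p = 0.0499), or 62.8% of the level in mock arrays (55.4% to 71.1%). This adjusted p sat just inside the threshold. It was 0.0552 when probe sets with names ending in _s_at or _x_at, which can match other transcripts, were left out before the fit, and the change stayed the same.

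KAT6A had 5 probe sets, all with a negative change. After the brightest, the next 3 in level had changes of -0.66, -0.73 and -0.58, with limma adjusted p of 0.0503, 0.0499 and 0.0616. The last, with mean levels of 3.62 in knockdown and 3.66 in mock arrays, had a change of -0.042 and stood at the 14.03th percentile of brightness. The 4 brighter probe sets thus had similar changes, and 2 of them passed. These were the only 2 of the 158 probe sets (1.27%) to pass, against 0.316% of all probe sets.

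KAT6B, the paralogue known as MORF, builds the same kind of complex as KAT6A. Its brightest probe set, whose name ends in _s_at, was at 7.07 and 7.39 in the knockdown arrays and at 7.61 and 7.57 in the mock arrays. The groups did not overlap, but the knockdown arrays were farther apart than for KAT6A. Its log2 change was -0.36 (SE 0.12, limma adjusted p = 0.243) and did not pass. It was -0.20 without knockdown replicate 1 and -0.52 without knockdown replicate 2. The other probe sets of KAT6B, both dimmer and named without _s_at or _x_at, had changes of -0.62 (limma adjusted p = 0.0696) and -0.31 (0.297). All 3 were negative, each with an unadjusted p under 0.05.

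The partners of the KAT6 enzymes did not show this pattern. BRPF1, the scaffold that joins KAT6A or KAT6B to its subunits, had a log2 change of -0.044 and an interval of -0.22 to 0.13. ING5, which reads methylated H3 in the same complex, had a change of -0.070, and MEAF6, a small shared subunit outside the list, one of 0.078. KAT7, the acetyltransferase most like them that also pairs with BRPF proteins, had a change of -0.065 (interval -0.31 to 0.18). All 5 of its probe sets were slightly negative, from -0.18 to -0.0077, and none had a p under 0.05.

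CREBBP and EP300, the paired coactivators that acetylate H3 at enhancers, gave no call. CREBBP was at 9.41 and 9.47 in the knockdown arrays and at 9.40 and 9.52 in the mock arrays, so the groups overlapped. Its log2 change was -0.019 (SE 0.081, limma adjusted p = 0.942). The 4 dimmer probe sets of CREBBP had changes of -0.22 to -0.12 with no overlap between groups, and in limma 1 of them, at -0.22, had an unadjusted p under 0.05. Over all probe sets, 22.5% lay lower without overlap, and probe sets of the same gene are not replicates. EP300 was at 6.00 and 6.29 in knockdown and at 6.06 and 6.35 in mock arrays, and both groups spanned nearly the same range. Its change was -0.066 (SE 0.14, limma adjusted p = 0.869), with the widest interval of the 48 genes, -0.42 to 0.28.

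KAT2B, a catalytic subunit of SAGA-type complexes, was at 7.47 and 7.67 in knockdown and at 7.43 and 7.31 in mock arrays. The groups did not overlap, with one knockdown array only just above the mock arrays. Its change was 0.20 (SE 0.099, limma adjusted p = 0.388). Its paralogue KAT2A had a change of -0.060, KAT5, the enzyme of the TIP60 complex, one of -0.076, and KAT8, which acetylates H4, one of 0.13. None of these 4 passed.

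No class I deacetylase passed, and none had an unadjusted p under 0.05 at its brightest probe set. HDAC1, a catalytic subunit of SIN3, NuRD and CoREST, was at 10.96 and 10.94 in knockdown and at 10.92 and 10.93 in mock arrays, a spread of a few hundredths. Its change was 0.024 (SE 0.070, limma adjusted p = 0.911). The 2 dimmer probe sets of HDAC1 had changes of -0.088 and -0.17, the latter without overlap between groups. Neither had an unadjusted p under 0.05. HDAC2, its close paralogue, was at 10.59 and 10.60 in knockdown and at 10.67 and 10.54 in mock arrays. The mock arrays enclosed the knockdown arrays, and the change was -0.0054 (SE 0.080, adjusted p = 0.988). A second, dim probe set of HDAC2 had a change of -0.23, at an unadjusted limma p of 0.0281. HDAC3, the enzyme of the NCOR complex, had a change of -0.13 on its single probe set.

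HDAC8, which deacetylates the cohesin subunit SMC3, was measured by 8 probe sets with unlike changes. The brightest, an _x_at set, was at 7.19 and 7.20 in knockdown and at 7.23 and 6.85 in mock arrays, with a change of 0.16 (limma adjusted p = 0.622). That change was -0.035 without mock replicate 2. By contrast, 3 dimmer probe sets had changes of 0.67, 0.57 and 0.44. The first of these was at 6.10 and 6.27 in knockdown against 5.55 and 5.47 in mock arrays, with no overlap (adjusted p = 0.0616). The other 4 had changes from -0.22 to 0.092, none with a p under 0.05. The rule of the brightest probe set thus gave a smaller change for HDAC8 than these 3, and which transcripts each set measures is not given in the sources used here.

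The 7 class II and IV deacetylases had changes from -0.054 (HDAC9) to 0.15 (HDAC5), with none at an unadjusted p under 0.05. HDAC6, a mainly cytoplasmic deacetylase of tubulin, was at 7.13 and 6.97 in knockdown and at 7.004 and 6.89 in mock arrays, and the groups overlapped. Its change was 0.10 (SE 0.092, interval -0.13 to 0.33, limma adjusted p = 0.638). Of its 7 probe sets, 4 were positive, the largest at 0.23 with an unadjusted limma p of 0.0230, and 3 dim ones were slightly negative. HDAC5, a class IIa enzyme that shuttles out of the nucleus when phosphorylated, was at 6.53 and 6.41 in knockdown and at 6.37 and 6.28 in mock arrays. The groups did not overlap, and its change of 0.15 (SE 0.083, adjusted p = 0.443) did not pass. HDAC4 had a change of 0.046, HDAC7 of -0.037, HDAC10 of -0.027 and HDAC11 of 0.10.

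Of the 6 sirtuins, the NAD-dependent deacylases, 1 (16.7%) had an unadjusted p under 0.05, as lower. Over all genes 7.25% were lower and 9.76% higher at that p. SIRT6, which deacetylates H3 in the nucleus, was at 7.18 and 7.16 in knockdown and at 7.37 and 7.35 in mock arrays. Arrays of a group nearly coincided, and the groups did not overlap. Its change was -0.19 (SE 0.071, limma adjusted p = 0.276). All 5 of its probe sets had negative changes, the other 4 between -0.096 and -0.030. SIRT1, the most studied nuclear sirtuin, had a change of -0.059, the mitochondrial SIRT3 of -0.043 and the nucleolar SIRT7 of -0.018. SIRT2 and the mitochondrial desuccinylase SIRT5 had changes of 0.15 and 0.16 with no overlap between the groups. Over all genes, 25.8% lay higher without overlap. The dimmer probe sets of SIRT5 had changes of -0.14 and 0.24, both with overlap between the groups.

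The BET proteins BRD2 and BRD3, which bind acetylated histones through paired bromodomains and help transcription proceed, had changes of opposite sign, neither past the adjusted threshold. BRD3 was at 9.30 and 9.37 in knockdown and at 9.12 and 8.97 in mock arrays. Its change was 0.29 (SE 0.086, limma adjusted p = 0.204), the highest of the 48 genes. All 4 of its probe sets were positive, from 0.23 to 0.34, without overlap between groups and each with an unadjusted p under 0.05. Over all probe sets, 24.2% lay higher without overlap and 9.10% were higher at that p. BRD2 was at 8.75 and 8.74 in knockdown and at 8.96 and 9.03 in mock arrays, again with no overlap. Its change was -0.25 (SE 0.073, adjusted p = 0.208), and its second probe set had a change of -0.15. The difference between the changes of BRD2 and BRD3 was not tested.

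BRD8, the bromodomain subunit of the TIP60 complex, was at 9.64 and 9.69 in knockdown and at 9.58 and 9.42 in mock arrays. The knockdown arrays lay above the mock arrays, narrowly so for one pair. Its change was 0.16 (SE 0.086, limma adjusted p = 0.410), and its 4 probe sets gave 0.16 to 0.20. BRD1 and BRPF3, scaffolds that mainly serve KAT7, had changes of 0.017 and 0.094.

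**Figure D3:**
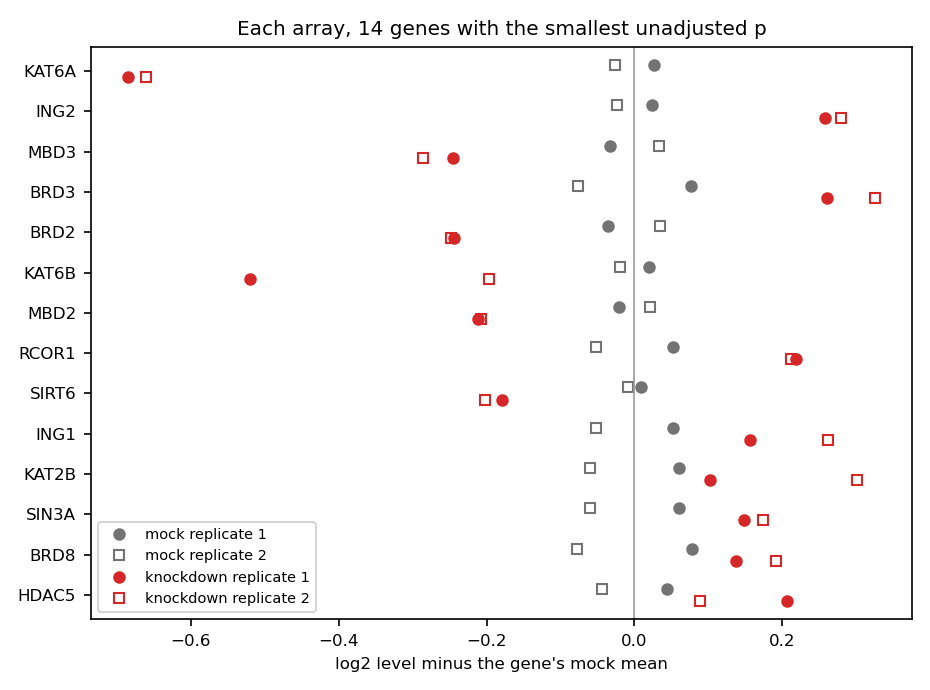
Log2 level of each array minus the mean of the mock arrays of that gene (horizontal axis), for the 14 genes with the smallest unadjusted p, with mock arrays in grey and knockdown arrays in red. In all 14 genes both knockdown arrays lie on one side of both mock arrays. The genes were chosen by p on these same arrays, which favours such a separation. Over all genes, both knockdown arrays lay higher in 25.8% and lower in 23.6%. KAT6A stands farthest out, and the knockdown arrays of KAT6B are the farthest apart, at 7.07 and 7.39.

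ING proteins read trimethylated H3 through a PHD finger and target acetyltransferase or deacetylase complexes. ING2, a subunit of the SIN3 deacetylase complex, was at 8.42 and 8.44 in knockdown and at 8.19 and 8.14 in mock arrays. The groups were well apart for arrays so close within a group. Its change was 0.27 (SE 0.072, limma adjusted p = 0.179), and its dim second probe set had a change of 0.0065. ING1, which serves the same SIN3 complex, was at 8.76 and 8.87 in knockdown and at 8.65 and 8.55 in mock arrays, with a change of 0.21 (SE 0.083, adjusted p = 0.304). Of its 5 probe sets 4 were positive. ING4, a subunit of KAT7 complexes, had changes of 0.17 and 0.28 on its 2 probe sets. ING3, of the TIP60 complex, and ING5 were at -0.058 and -0.070.

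The 3 corepressor scaffolds measured had positive changes at their brightest probe sets, without overlap between groups, and none passed. Over all genes, 48.6% had a positive change and 25.8% lay higher without overlap. RCOR1, the core of the CoREST complex that joins HDAC1 or HDAC2 to the demethylase KDM1A, was at 9.04 and 9.03 in knockdown and at 8.87 and 8.77 in mock arrays. Its change was 0.22 (SE 0.077, limma adjusted p = 0.262), and its dimmer second probe set had one of 0.0013. SIN3A was at 8.21 and 8.23 in knockdown and at 8.12 and 8.001 in mock arrays, with a change of 0.16 (SE 0.079, adjusted p = 0.388). Its other 2 probe sets had changes of -0.063 and 0.2. Its paralogue SIN3B had a change of 0.10, with 4 of 6 probe sets positive and the lowest at -0.21.

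None of the 8 NuRD genes passed. An unadjusted p under 0.05 was reached by 2 with lower values and 0 with higher values, where 7.25% of all genes were lower and 9.76% higher at that p. Both were methyl-CpG-binding-domain subunits, MBD3 and MBD2, which occupy NuRD in the alternative. MBD3 was at 8.78 and 8.73 in knockdown and at 8.99 and 9.05 in mock arrays. The groups did not overlap, and the change was -0.27 (SE 0.074, limma adjusted p = 0.190). A second probe set of MBD3 had a change of -0.32, and the third one of 0.15. The first and second end in _s_at and _x_at, and the third, whose change was opposite in sign, is the one set for MBD3 that does not. MBD2, which binds methylated DNA, was at 9.65 and 9.66 in knockdown and at 9.84 and 9.88 in mock arrays. Its change was -0.21 (SE 0.071, adjusted p = 0.247) with no overlap, while its 3 dimmer probe sets had changes of -0.075 to 0.071.

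The rest of NuRD gave no call. RBBP4, the histone chaperone shared by NuRD and SIN3, was at 10.25 and 10.31 in knockdown and at 10.32 and 10.26 in mock arrays, almost the same pair of values. Its change was -0.015 (SE 0.075, limma adjusted p = 0.951). The MTA subunits, which hold the deacetylase, had changes of 0.084 (MTA1), -0.021 (MTA2) and 0.15 (MTA3). GATAD2A and GATAD2B, which link MBD proteins to the remodelling ATPase, had changes of 0.048 and -0.12. Outside the list, the ATPase CHD4 had a change of -0.17 (adjusted p = 0.353), CHD3 of 0.033 and RBBP7, the paralogue of RBBP4, of -0.035.

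**Figure D4:**
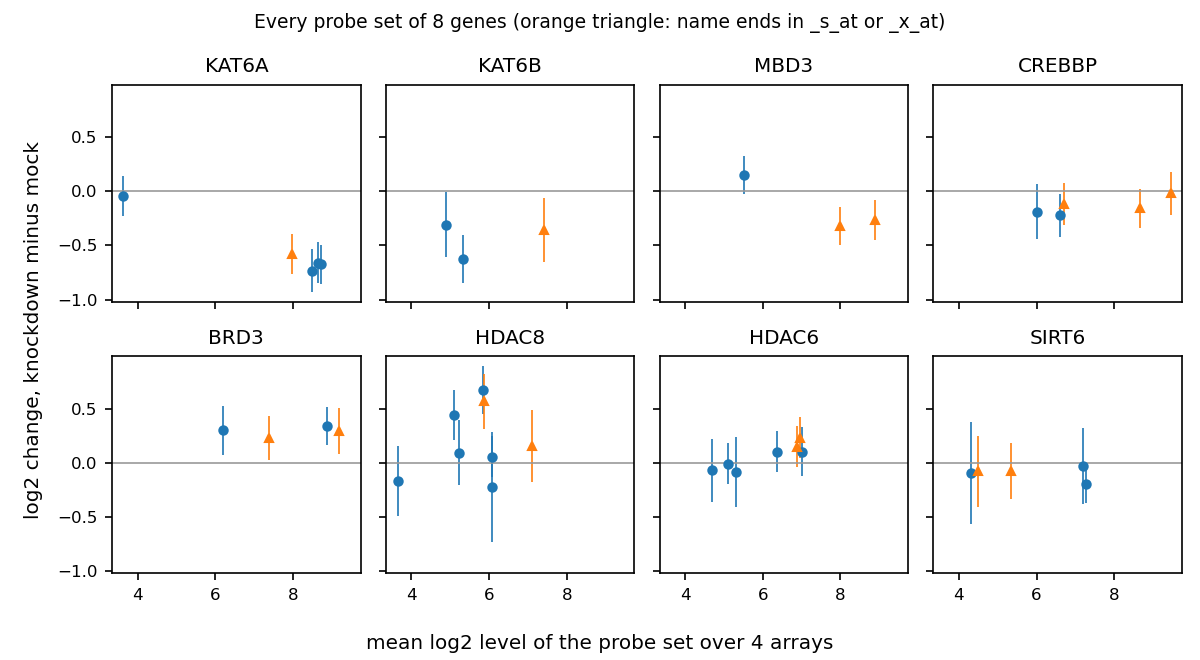
Log2 change of knockdown minus mock with its 95% interval (vertical axis) against the mean log2 level (horizontal axis) for every probe set of 8 genes. Orange triangles mark names ending in _s_at or _x_at. The 4 bright sets of KAT6A lie between -0.73 and -0.58 and all 4 sets of BRD3 lie above 0, while the 8 sets of HDAC8 spread from -0.22 to 0.67.

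Probe sets of the same gene agreed about as often in this list as elsewhere. Of the 40 genes with more than 1 probe set, 18 (45.0%) had all changes of the same sign, beside 47.2% of all such genes. At least 2 probe sets had an unadjusted p under 0.05 in KAT6A, KAT6B and MBD3, all lower, and in BRD3 and HDAC8, both higher. That is 7.5% and 5% of the 40 genes, beside 4.67% and 7.30% of all 11734 genes with more than 1 probe set. MBD3 and HDAC8 also had probe sets of the opposite sign. Probe sets of a gene share its RNA and often its transcripts, so they are not replicates. Over all 158 probe sets, 14 (8.86%) were lower and 12 (7.59%) higher at an unadjusted p under 0.05, against 7.07% and 9.10% of all probe sets.

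For these genes the promoter windows of RefSeq (build GRCh38.p14, 250 bases before to 50 after the most upstream listed start) are shown, since several probe sets of each had an unadjusted p under 0.05 in 1 direction; the array itself reports only mRNA. Of the 49 symbols 44 matched this table, and KAT6A, KAT8, HDAC5, SIRT7 and ING3 did not. The windows lie at chr10:74825005-74825304 on the plus strand for KAT6B, and on the minus strand at chr19:1592816-1593115 for MBD3, chr9:134067977-134068276 for BRD3 and chrX:72572794-72573093 for HDAC8. Each is written 5′ to 3′ on the strand of the gene. Capitals mark matches, on either strand, to the GC box GGGCGG, the CCAAT box CCAAT, the AP-1 motif TGANTCA or the E-box CACGTG, and neighbouring GC boxes can overlap.
KAT6B: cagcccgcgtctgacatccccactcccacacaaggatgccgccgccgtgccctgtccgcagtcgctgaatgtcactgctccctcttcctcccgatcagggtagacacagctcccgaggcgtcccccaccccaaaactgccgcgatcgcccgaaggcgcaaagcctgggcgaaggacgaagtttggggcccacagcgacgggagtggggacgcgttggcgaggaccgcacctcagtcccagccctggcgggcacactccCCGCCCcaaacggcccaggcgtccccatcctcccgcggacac
MBD3: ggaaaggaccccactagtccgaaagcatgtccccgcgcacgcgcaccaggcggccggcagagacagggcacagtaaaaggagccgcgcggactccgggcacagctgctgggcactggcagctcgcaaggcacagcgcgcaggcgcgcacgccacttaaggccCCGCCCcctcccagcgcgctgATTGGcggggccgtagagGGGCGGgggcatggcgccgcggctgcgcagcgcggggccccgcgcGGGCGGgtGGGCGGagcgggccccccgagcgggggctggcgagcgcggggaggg
BRD3: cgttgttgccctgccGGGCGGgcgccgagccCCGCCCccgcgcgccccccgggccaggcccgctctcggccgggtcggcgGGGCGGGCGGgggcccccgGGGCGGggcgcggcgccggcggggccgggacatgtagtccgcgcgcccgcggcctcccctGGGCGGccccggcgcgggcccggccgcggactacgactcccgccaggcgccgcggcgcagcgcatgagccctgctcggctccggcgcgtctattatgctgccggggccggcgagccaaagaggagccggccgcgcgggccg
HDAC8: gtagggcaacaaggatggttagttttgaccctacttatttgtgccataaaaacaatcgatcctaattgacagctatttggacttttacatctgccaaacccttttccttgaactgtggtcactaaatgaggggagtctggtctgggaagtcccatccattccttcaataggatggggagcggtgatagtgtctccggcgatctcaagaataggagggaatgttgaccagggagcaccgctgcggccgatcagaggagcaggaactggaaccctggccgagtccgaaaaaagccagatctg

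The 4 windows differ in base composition. BRD3 had 85.0% G and C, 56 CpG dinucleotides and 6 GC-box matches, and MBD3 had 77.0%, 40 CpGs, 4 GC-box matches and 1 CCAAT match. KAT6B had 69.0%, 29 CpGs and 1 GC-box match, and HDAC8 had 49.3%, 9 CpGs and no match to any of the 4 motifs. Over the 75 windows of the 44 matched genes the median was 68.7% G and C with 30 CpGs, beside 58.7% and 14 in all 35114 windows. A GC box was present in 68.0% of these 75 windows and in 44.95% of all, a CCAAT box in 30.7% and 34.6%, an AP-1 motif in 5.33% and 7.71%, and an E-box in 5.33% and 7.26%. A match to these letters is a description of the window and shows no binding.

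The 70 related genes were mostly listed under acetyltransferase and corepressor complexes, with some other readers and writers and a sirtuin. Of these, 66 were measured and none passed the test in limma. An unadjusted p under 0.05 was reached by 6 (9.09%) with higher and 3 (4.55%) with lower values, beside 9.76% and 7.25% of all genes. Their changes were positive in 43 of 66 (65.2%), beside 48.6% of all genes, with a median of 0.035 beside -0.0043. MLLT3, a YEATS-domain reader of acylated histones that recruits elongation factors, was at 7.93 and 8.05 in knockdown and at 7.36 and 7.27 in mock arrays. The groups were far apart, its change was 0.67 (SE 0.083, limma adjusted p = 0.0551), and its second probe set had one of 0.38. PHF21A, the CoREST subunit that reads unmethylated H3, was at 8.03 and 8.08 in knockdown against 7.55 and 7.60 in mock arrays. Its change was 0.48 (SE 0.073, adjusted p = 0.0764), but its other 3 probe sets had changes of -0.040, 0.18 and 0.091.

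SAP30L, a SIN3 subunit, was at 9.46 and 9.52 in knockdown and at 9.19 and 9.01 in mock arrays. All 4 of its probe sets were positive, from 0.24 to 0.39, with an adjusted p of 0.145 in limma at the brightest. MSL2, the ubiquitin ligase of the MSL complex that holds KAT8, had a change of 0.31 (adjusted p = 0.142) and one of -0.027 on its second probe set. JADE2, a scaffold of KAT7 complexes, had a change of 0.26 (limma adjusted p = 0.221), and its 6 probe sets ran from -0.075 to 0.33. GPS2, a subunit of the NCOR complex, had one of -0.26 on its single probe set (limma adjusted p = 0.209). By group, changes were positive in 14 of 18 genes of the NuA4, MSL and NSL group. They were positive in 15 of 20 of the SIN3, NCOR, CoREST, MiDAC and MIER group, beside 48.6% of all genes. Positive changes were found in 7 of 16 of the SAGA and ATAC group, 4 of 5 other readers and writers, and 0 of 1 sirtuin. They were found in 3 of 6 genes of a group made of further NuRD genes and MBD1, whose change was 0.042. The differences between these groups were not tested.

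Leaving out 1 array left 1 residual degree of freedom, and then no gene passed, ARID1A included. The change of KAT6A stayed between -0.70 and -0.65 in these 4 fits. The count of higher genes at an unadjusted p under 0.05 was 4 without knockdown replicate 1 or mock replicate 1, and 0 without knockdown replicate 2 or mock replicate 2. The count of lower genes was 2 without either knockdown replicate, 3 without mock replicate 1 and 1 without mock replicate 2.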

How the data were processed

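Total RNA of 4 OE33 samples was measured on Affymetrix Human PrimeView arrays, 2 knockdown and 2 mock, grouped by sample titles. The values deposited by the authors are on the log2 scale, 1 per probe set, and were made with RMA and Partek per the submitters' processing notes. RMA corrects background, brings arrays to a common distribution and summarises probes, so a shift of all mRNAs together would not show and changes of dim probe sets are compressed. The log2 scale was inferred from RMA and the range of the values. No batch was known.

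Of 49372 probe sets, 79 controls were left out. Names came from the platform annotation, checked by Entrez identifier against RefSeq. Of the 49293 probe sets tested, 44988 had 1 gene, 1832 several and 2473 no gene, and a name was given to probe sets with 1 gene. Groups were compared over all 49293 by limma 3.58.1 in R 4.3.3, two-sided, with Benjamini-Hochberg adjustment and a threshold of 0.05. Residual degrees of freedom were 2, with 3.62 more from the prior. An exact permutation of 2 arrays against 2 cannot go below p = 0.333 and was not used. The number of arrays limits the precision. The procedure was tested on simulated data.

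Members, lists and alternatives were chosen with earlier results of these data known. Named in full were genes past the threshold, the 14 with the smallest unadjusted p, and HDAC1, HDAC2, HDAC6, EP300, CREBBP and RBBP4. Of the related genes the 6 with the smallest unadjusted p were named, some with fewer values. Genes whose promoters are shown, and probe sets named singly, were chosen after their values were seen. Some related genes and 1 marker are not reported here.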

Additional observations from a re-analysis of the deposited data

How the results depend on the processing

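Over 11 alternatives, 481 of 526 values of the 48 genes kept their direction and their side of the threshold, and 34 changed sign with no call on either side, in 22 genes. Among the 10 genes with an unadjusted p under 0.05, the 1 sign change was that of MBD3, at 0.15 without _s_at and _x_at probe sets. KAT6A passed with arrays centred on their medians, under quantile normalization, without the dimmest 25% of probe sets, with the mean over the probe sets of a gene and with the intensity trend, with changes of -0.70 to -0.54. All genes past the threshold numbered 73, and 286, 138, 221, 356 and 1565 in these 5 settings. With the trend 6 of the 48 genes passed, and with the mean over probe sets 3 were lower at an unadjusted p under 0.05. Without _s_at and _x_at probe sets 12 genes and 0 of the 48 passed, with KAT6A at -0.67 (limma adjusted p = 0.0552).

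The labels do not say that replicate numbers mark a shared culture or day, and deviations of arrays with the same number correlated at r = -0.20 over all probe sets, so no pairing was used. With the replicate block, 0 genes passed in limma, ARID1A (-1.78, adjusted p = 0.217) and KAT6A (-0.67, 0.255) included, and an unadjusted p under 0.05 was reached by 2 of the 48 with higher and 4 with lower values. With a crossed replicate block, added after seeing the data, 0 genes and 0 of the 48 passed, with 5 higher and 6 lower at that p. Both blocks leave 1 residual degree of freedom.

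With 1 array left out, 0 genes passed in each fit. ARID1A ran from -1.80 to -1.75 (adjusted p 0.244 to 0.521), KAT6A from -0.70 to -0.65 (0.262 to 0.521) and the median of the 48 genes from 0.0093 to 0.031, against -0.010 with all arrays. The count of higher genes ran from 0 to 4 and of lower genes from 1 to 3. The cause of the other changes was not tested.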
